A study of Mus musculus with 12 samples.

Results

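The mitochondrial ribosomal protein genes of a vascular tumor cell line were compared between autophagy-competent cells and cells that lacked Fip200, Atg5 or Atg7. They were taken as every gene whose symbol starts with Mrpl or Mrps followed by a digit, with no use of its measured values. There were 78 such genes among the 14851 in the tables, 49 Mrpl genes named for the large subunit and 29 Mrps genes named for the small subunit. Messenger RNA was profiled by RNA-sequencing in 12 libraries, 3 from each of 4 groups. All groups were 562 cells, a line that immortalized spontaneously in culture from a cutaneous tumor of a Tsc1 f/f;Scl-Cre mouse given tamoxifen, so that controls and KO cells alike carried the endothelial deletion of Tsc1. The labels give the strain as C57BL/6, the tissue as lymphatic endothelial cells, and the genotype of the control cells as wildtype, with no mention of Tsc1. The KO cells were made with lentiviral CRISPR/Cas9 guides against Fip200, Atg5 or Atg7 and puromycin selection, and the study's control guide was against EGFP. The labels do not say whether the control libraries came from cells with that guide or from cells without any. The study's methods name 1 guide each for Atg5 and Atg7 and 2 for Fip200. Which Fip200 guide, and which clone if any, each library came from is not given in the sources used here, and nothing in the labels says that the 3 libraries of a group came from separate lines, so the spread between them may be technical in part.

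Mitochondrial ribosomes translate the few messages that the mitochondrial genome encodes, all of them for subunits of the respiratory chain and ATP synthase. Their small subunit reads the message and their large subunit forms the peptide bonds, and every protein of both subunits is encoded in the nucleus and imported. Some of these proteins have bacterial counterparts and others exist only in mitochondria. A symbol does not always give the place of the protein: the products of Mrps30 and Mrps18a sit in the large subunit, and the product of Mrps36 belongs to the oxoglutarate dehydrogenase complex of the citric acid cycle. Fip200, the product of Rb1cc1, is part of the ULK complex that starts autophagy, while Atg5 and Atg7 act in the conjugation steps that attach LC3 to membranes.

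Values are RPKM, the reads of a gene per kilobase of its length and scaled to the total reads of the library, and differences are log2 fold changes of RPKM plus 0.5. A gene passed when limma gave a Benjamini-Hochberg adjusted p no higher than 0.1 over all genes tested, and it was called when it also changed by at least 1 on the log2 scale. Each library held between 17264989 and 23627944 counted reads. Summed RPKM of 10 endothelial markers ranged from 1066 to 2714, although Vwf stayed at or under 0.809. Of the lymphatic endothelial markers, Prox1, which defines lymphatic endothelium, lay between 0.0366 and 5.79. The others were higher in every library, with Lyve1 at 60.6 to 393, Pdpn at 51.5 to 336 and Flt4 at 31.7 to 101 RPKM. The leukocyte markers Ptprc and Adgre1 were below 0.5 in every library, whereas the macrophage-associated Cd68 reached 263 in Fip200 KO replicate 1 against 34.4 to 91.7 in control cells and 6.95 to 27.1 in the other KO libraries. The lowest endothelial sum was that of control replicate 2, and the next lowest library stood at 1706. This library also held the most RNA of the fibroblast markers Dcn (56.9 RPKM) and Pdgfra (9.02), followed by control replicate 3 (15.2 and 2.26), while all other libraries stayed at or under 0.989 for Dcn. Summed RPKM of 7 fibroblast or mural markers was 18.9 to 81.9 in control, 112 to 213 in Atg5 KO, 73.6 to 361 in Atg7 KO and 16.4 to 290 in Fip200 KO libraries. Most of it in Atg5 KO and Atg7 KO cells was Thy1, at 2.36 to 17.7 RPKM in control, 107 to 207 in Atg5 KO and 71.2 to 346 in Atg7 KO libraries. The Fip200 KO libraries were split, with Thy1 at 288 and 229 in replicates 1 and 2 and 0.21 in replicate 3. The part of these markers in the values below was not tested. Of the targeted genes, Atg7 RNA was 5.40, 2.64 and 8.34 RPKM in the Atg7 KO libraries and 18.4, 25.0 and 19.8 in control. It was also below every control library in the Atg5 KO libraries, at 9.99, 11.9 and 9.94, and in Fip200 KO replicates 2 and 3, at 12.4 and 8.23, but was 38.3 in Fip200 KO replicate 1. Rb1cc1 RNA was 5.18, 6.84 and 2.06 RPKM in the Fip200 KO libraries and 6.43, 8.27 and 7.73 in control, so that replicates 1 and 3 lay below every control library and replicate 2 within their range. Atg5 RNA overlapped between control and Atg5 KO, and guide-made mutations need not lower RNA.

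All 78 genes were expressed in control cells and all passed the filter on low values in each comparison. Their mean RPKM spanned a 23.5-fold range, from 3.81 to 89.7, and the large and small subunit genes had nearly the same median of these means, 22.9 and 22.8. The level per length thus differed far more among genes of 1 subunit than between the subunits.

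Among large subunit genes, Mrpl13 stood at the top with 81.5, 98.7 and 88.9 RPKM in the 3 control libraries. It was followed by Mrpl14 at 45.8 ± 5.7 (SD, n = 3) and Mrpl30 at 44.5 ± 2.2, whose libraries overlapped with each other but lay below all of Mrpl13. At the bottom were Mrpl19 with 5.33 ± 0.45, Mrpl16 with 4.85 ± 1.8 and Mrpl58, which encodes a peptidyl-tRNA hydrolase built into the large subunit, with 4.26 ± 0.29. The libraries of Mrpl16 overlapped with those of both neighbours.

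In the small subunit, Mrps21 with 82.5 ± 15, Mrps6 with 78.4 ± 23 and Mrps18c with 74.9 ± 3.5 RPKM led, and their libraries overlapped, so their order was not resolved. The lowest were Mrps23 at 14.6 ± 0.68, Mrps31 at 9.14 ± 1.9 and Mrps25 at 3.81 ± 0.69, with no overlap between them. The 3 genes of the Mrps18 family, which encode related proteins, were at 38.2 (Mrps18a), 22.8 (Mrps18b) and 74.9 (Mrps18c) RPKM. Control libraries disagreed most over Mrpl16 (highest to lowest library 2.14-fold), Mrpl33 (1.74) and Mrpl52 (1.70) in the large subunit, and over Mrps6 (1.65), Mrps30 (1.62) and Mrps31 (1.52) in the small one.

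**Figure D1:**
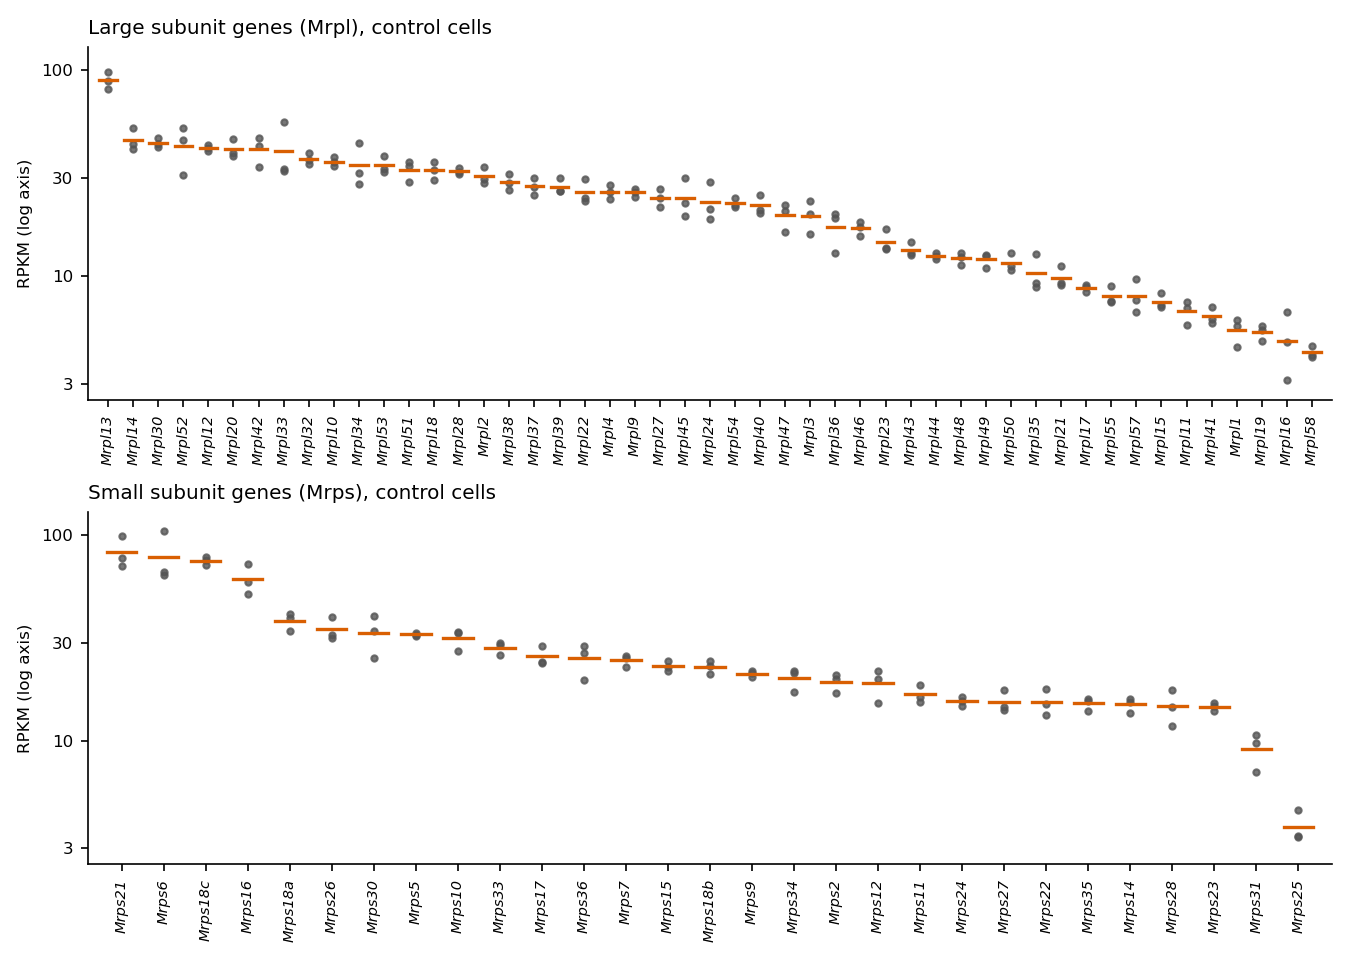
RPKM (log axis) of the 49 Mrpl genes (top) and 29 Mrps genes (bottom) in control cells, in order of their mean. Points are the 3 control libraries and bars their mean; Mrpl13 stands alone at the top of the large subunit and Mrps25 alone at the bottom of the small one.

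In Atg5 KO cells 33 of the 78 genes (42.3%) rose and 4 fell. Over all 11833 genes tested, 22.9% rose and 18.7% fell, so risers were more frequent and fallers less frequent among the mitochondrial ribosomal protein genes than among all genes. Their median log2 fold change was 0.27, beside 0.06 for all genes. In bulk RNA, less RNA per cell and fewer cells of a type cannot be told apart. In the large subunit 24 of 49 genes rose and 1 fell, and in the small subunit 9 of 29 rose and 3 fell. All 3 Atg5 KO libraries were above all 3 control libraries for 40 of the 78 genes, where 28.4% of all genes showed this, and below them for 5, where 22% of all genes did. Most changes were small: 3 genes, Mrpl33, Mrpl49 and Mrpl16, were called, beside 11.2% of all genes.

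The Atg5 KO counts depended on the libraries in the fit. Without Atg5 KO replicate 1, 22 of the 78 genes rose, 15 of them in the large subunit, and 2 fell, beside 12.2% and 11.7% of all genes. Without control replicate 2, 33 rose and 3 fell, beside 20.9% and 15.1%. In 1 fit over all 12 libraries, which share 1 estimate of the spread, 15 of the 78 genes rose and 2 fell, beside 9.83% and 9.2% of all genes. Library names carry 3 prefixes, which the sources used here do not explain. The prefix JG is on 2 control and 2 Atg5 KO libraries, FY on 1 control and all Fip200 KO libraries, and Yang on 1 Atg5 KO and all Atg7 KO libraries. With a prefix term added to the fit over 12 libraries, the Atg5 KO difference was that of the 2 JG libraries of each group, and 5 genes rose (all of the large subunit) and 1 fell, beside 2.73% and 3.7% of all genes.

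In Atg7 KO cells 11 of 78 genes (14.1%) rose and 3 fell, beside 11.3% and 13.7% of all 11784 genes tested. The share that rose was thus near the background. All 11 that rose were large subunit genes, namely Mrpl3, Mrpl11, Mrpl16, Mrpl18, Mrpl20, Mrpl21, Mrpl30, Mrpl33, Mrpl42, Mrpl48 and Mrpl49, while 0 of 29 small subunit genes rose and 2 fell. The medians of the subunits were nearly equal all the same, 0.23 in the large and 0.20 in the small subunit, and 0.21 and 0.30 with the median of the chromosome subtracted from each gene. The median over the 78 genes was 0.23, beside -0.01 for all genes. The 3 Atg7 KO libraries lay above the 3 control libraries for 23 genes and below them for 8, where the shares of all genes were 19.2% and 20.4%. Mrpl33 and Mrpl16 were called, while 10.1% of all genes were.

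The Atg7 KO counts moved with single libraries. Without Atg7 KO replicate 2, 30 of the 78 genes rose (22 large, 8 small subunit), beside 16.5% of all genes. By contrast, 2 rose without control replicate 3, 3 without Atg7 KO replicate 1 and 5 without control replicate 2, where 2.42%, 3.11% and 4.39% of all genes rose, so the share of all genes moved in the same direction. The 3 that fell became 0 without control replicate 3 or Atg7 KO replicate 1, and 1 without control replicate 2, where 3.71%, 6.26% and 6.18% of all genes fell. The median stayed between 0.17 and 0.37 over the 6 libraries left out in turn. No control library has the prefix of the Atg7 KO libraries, so prefix and loss of Atg7 cannot be told apart without Atg5 KO replicate 3, the 1 other library that carries it. A fit with a prefix term reached control only through that library, and its 0 genes that rose and 0 that fell, beside 0.0654% and 0.245% of all genes, say nothing of how stable the counts are. Without a prefix term the fit over all 12 libraries gave 11 genes that rose and 1 that fell, beside 8.76% and 11.3% of all genes. The count of small subunit genes that rose, 0 with all libraries, thus depended on the libraries used.

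In Fip200 KO cells 0 of 78 genes passed limma's test in either direction, where 0.356% of all 11803 genes rose, 1.69% fell and 1.98% were called. At an unadjusted p under 0.05, 9 of the 78 genes differed, beside 16.1% of all genes, so that their share was below the background. In the fit over all 12 libraries 6 genes rose (Mrpl3, Mrpl16, Mrpl18, Mrpl19, Mrpl33 and Mrpl48) and 0 fell, beside 3.47% and 5.97% of all genes. With a prefix term the difference rested on 1 control library, and 0 members passed, beside 0.0163% of all genes that rose and 0.368% that fell. The log2 fold change was above 0 for 56 genes and below 0 for 22, with a median of 0.20 beside 0.02 for all genes. The 3 Fip200 KO libraries were above the 3 control libraries for 21 genes (14 large, 7 small subunit) and below them for 0, where 11.7% and 12.4% of all genes were. The spread between Fip200 KO libraries was wider than in the other groups, with a median SD of 0.28 on the log2 scale over the 78 genes beside 0.14 in control, 0.23 in Atg7 KO and 0.11 in Atg5 KO cells. Leaving out Fip200 KO replicate 1, the library with high Cd68, gave a median of 0.13 and again 0 genes that passed, beside 0.129% of all genes that rose and 1.1% that fell.

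**Figure D2:**
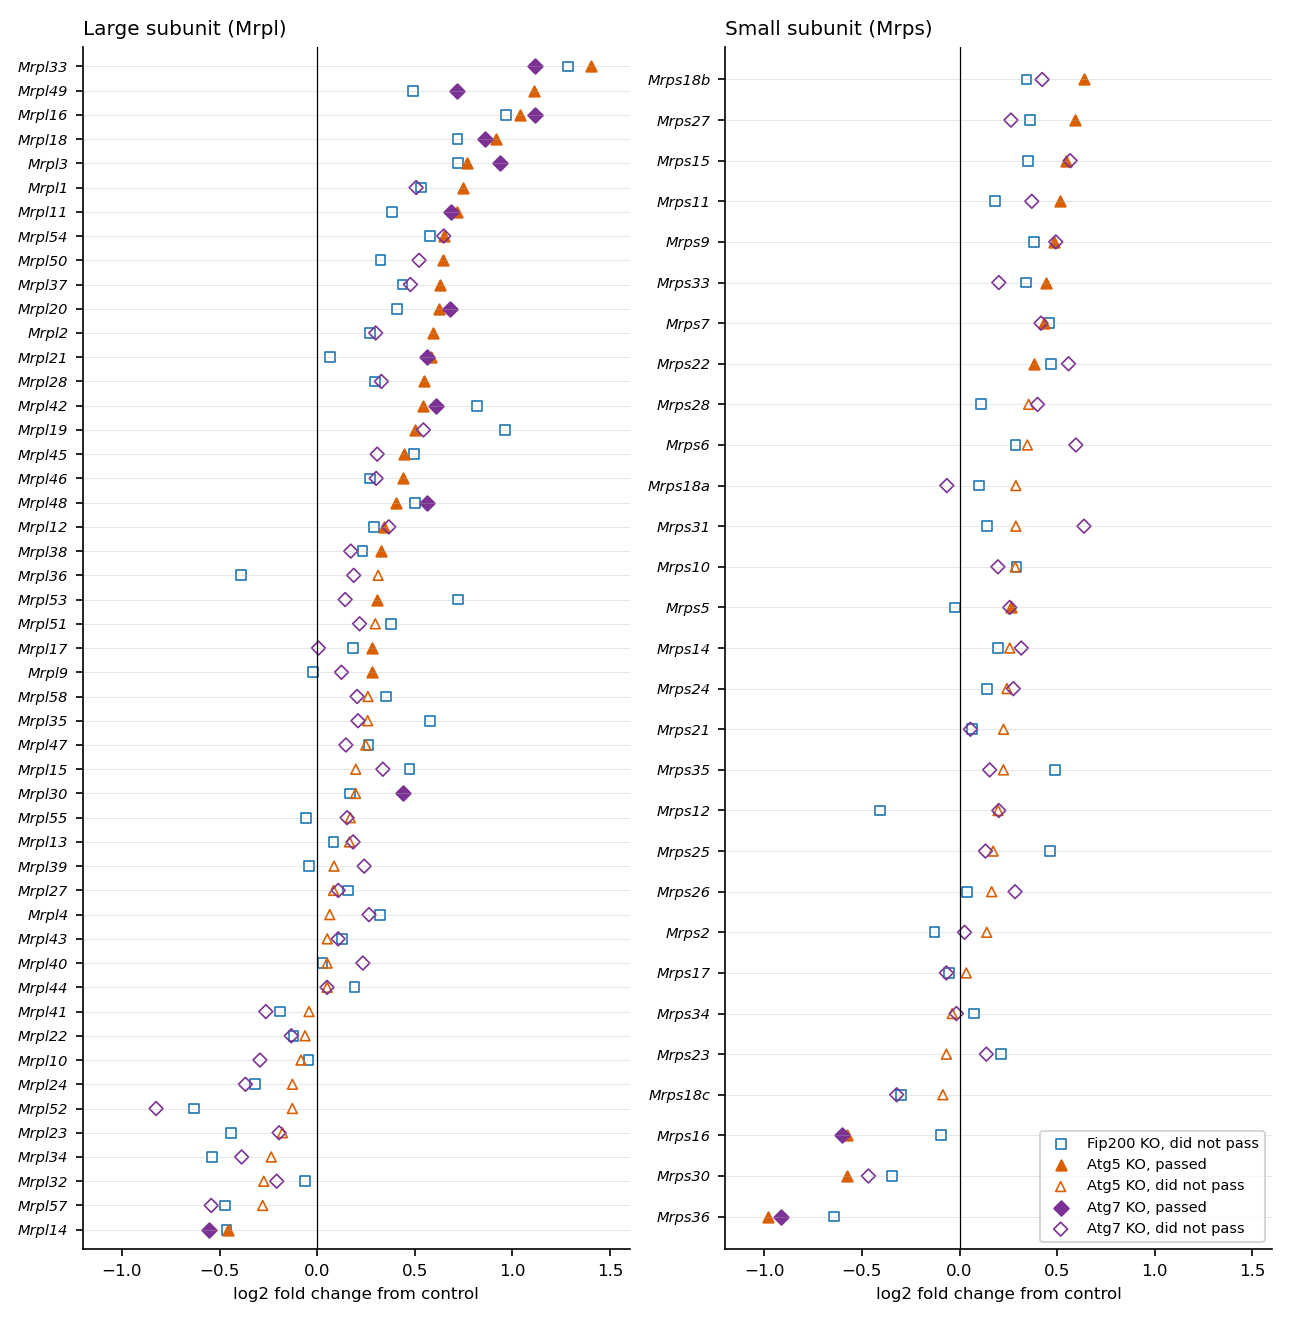
Log2 fold change from control (x axis) of each large subunit gene (left) and small subunit gene (right) with loss of Fip200 (squares), of Atg5 (triangles) or of Atg7 (diamonds), in order of the Atg5 KO value. Filled symbols passed (adjusted p up to 0.1); 33 Atg5 KO and 11 Atg7 KO values on the right of 0 are filled, and no Fip200 KO value is.

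The 3 comparisons used the same 3 control libraries, so their likeness is a description. For 13 genes all 9 KO libraries were above all 3 control libraries, where 6.02% of all 12233 genes were, and for 0 genes were all 9 below, where 7.28% of all genes were. The 13 were Mrpl1, Mrpl3, Mrpl11, Mrpl16, Mrpl18, Mrpl19, Mrpl20, Mrpl33, Mrpl42, Mrpl48, Mrps7, Mrps9 and Mrps15.

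Mrpl33, a small protein of the large subunit with a bacterial counterpart, had the highest log2 fold change of the 78 genes in Fip200 KO and Atg5 KO cells. In Atg7 KO cells Mrpl33 and Mrpl16 shared the highest value, 1.11. Its control libraries held 56.1, 32.3 and 33.0 RPKM, its Atg5 KO libraries 88.6, 97.0 and 132, its Atg7 KO libraries 92.6, 71.3 and 94.1, and its Fip200 KO libraries 157, 65.6 and 86.2. No KO library overlapped with control, and Fip200 KO replicate 1 was the highest of all. The log2 fold change was 1.40 ± 0.25 (SE) in Atg5 KO cells (limma adjusted p = 0.011) and 1.11 ± 0.25 in Atg7 KO cells (limma adjusted p = 0.031). The Fip200 KO difference of 1.29 ± 0.37 did not pass (limma adjusted p = 0.173), whereas it passed in the fit over all 12 libraries.

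Mrpl16, a conserved large subunit protein at the low end of the range, had 6.66, 4.78 and 3.11 RPKM in control, 10.2, 10.4 and 9.59 in Atg5 KO, 10.0, 12.7 and 9.42 in Atg7 KO and 9.43, 7.82 and 11.8 in Fip200 KO libraries. Every KO library was above every control library, although the control libraries themselves differed more than for any other member. It rose by 1.04 ± 0.25 (SE) in Atg5 KO cells (limma adjusted p = 0.023) and by 1.11 ± 0.28 in Atg7 KO cells (limma adjusted p = 0.042). Its depth was the lowest of the genes described here, down to 69 reads in a library.

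Mrpl49 encodes a large subunit protein found only in mitochondria. It had 12.5, 11.0 and 12.7 RPKM in control, 27.3, 27.8 and 24.5 in Atg5 KO, 20.2, 20.6 and 19.3 in Atg7 KO and 11.8, 18.6 and 22.6 in Fip200 KO libraries. Atg5 KO and Atg7 KO libraries lay apart from control, while Fip200 KO replicate 1 lay within it. The log2 fold change was 1.11 ± 0.12 (SE) in Atg5 KO cells, with the smallest adjusted p of all members (limma, 0.0037), and 0.71 ± 0.14 in Atg7 KO cells (limma adjusted p = 0.025).

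Mrpl18, whose protein has a bacterial counterpart that binds 5S rRNA, had 32.8, 29.3 and 35.7 RPKM in control, 55.1, 62.2 and 68.6 in Atg5 KO, 68.2, 47.6 and 64.3 in Atg7 KO and 53.9, 51.6 and 56.0 in Fip200 KO libraries. The lowest KO library exceeded the highest control library. Its log2 fold change was 0.92 ± 0.13 (SE) in Atg5 KO cells (limma adjusted p = 0.0060) and 0.86 ± 0.18 in Atg7 KO cells (limma adjusted p = 0.028). In Fip200 KO cells it was 0.72 ± 0.17, and its adjusted p was the smallest of the 78 genes there, though it did not pass (limma, 0.125) other than in the fit over all 12 libraries and without Fip200 KO replicate 3.

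Mrpl3 encodes a conserved protein near the site of peptide bond formation. It had 23.0, 16.0 and 20.0 RPKM in control, 32.6, 31.8 and 36.3 in Atg5 KO, 46.3, 32.8 and 35.4 in Atg7 KO and 39.5, 27.9 and 30.8 in Fip200 KO libraries, with no overlap between KO and control. It rose by 0.77 ± 0.15 (SE) in Atg5 KO cells (limma adjusted p = 0.014) and by 0.94 ± 0.20 in Atg7 KO cells (limma adjusted p = 0.029). Mrpl20, at 41.4 RPKM in control, rose by 0.62 in Atg5 KO cells (limma adjusted p = 0.012) and by 0.68 in Atg7 KO cells (limma adjusted p = 0.061). Mrpl30 rose by 0.44 in Atg7 KO cells (limma adjusted p = 0.086), though not in the fit over all 12 libraries, and its difference between Atg7 KO and Atg5 KO cells, 0.25 ± 0.19, did not pass.

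**Figure D3:**
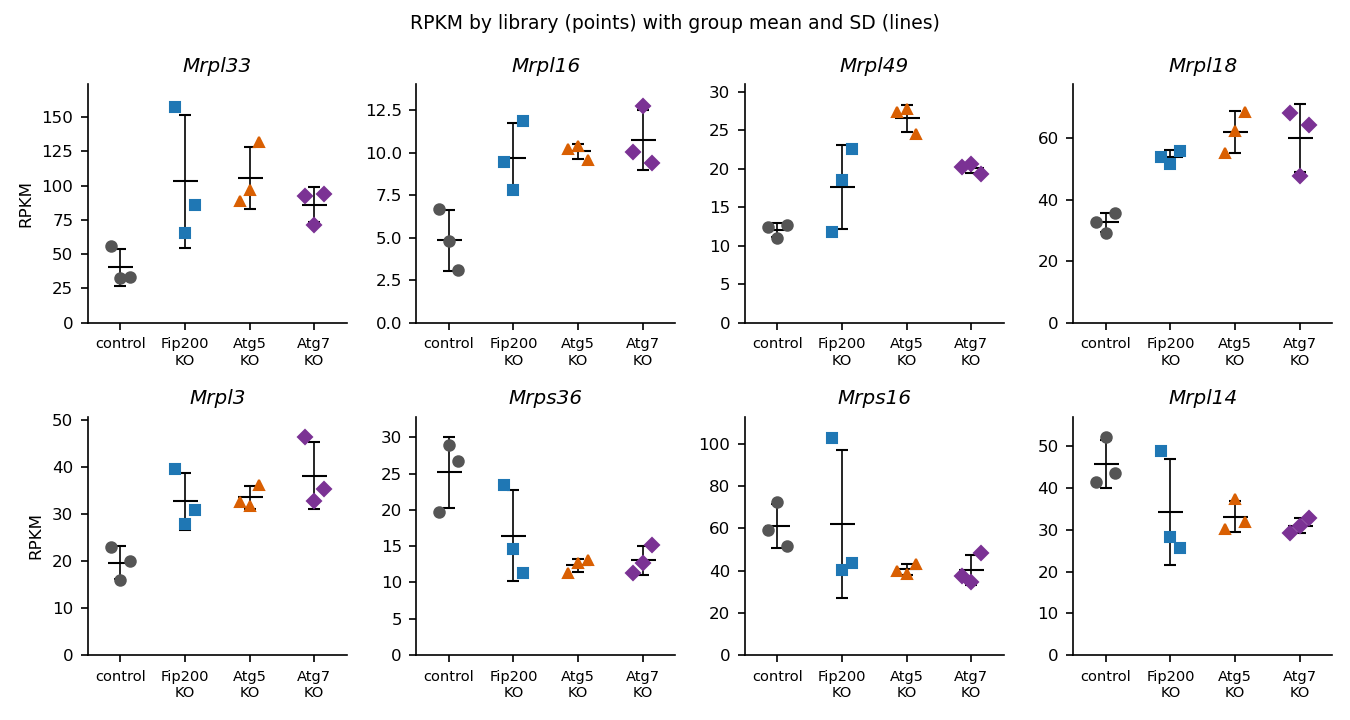
RPKM (y axis, from 0) of 8 genes in each library, by group. Points are libraries, and the lines give the mean and SD of the 3 libraries of a group; Mrpl33, Mrpl16, Mrpl18 and Mrpl3 are higher in all 9 KO libraries than in control, and Mrps36, Mrps16 and Mrpl14 are below every control library in Atg5 KO and Atg7 KO cells.

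The small subunit genes that rose did so in Atg5 KO cells and by less than 1 on the log2 scale. Mrps18b, a member of the Mrps18 family, had 23.0, 24.3 and 21.0 RPKM in control and 37.8, 35.4 and 33.8 in Atg5 KO libraries, which did not overlap. It rose by 0.64 ± 0.11 (SE; limma adjusted p = 0.0091), and its other log2 fold changes were 0.34 in Fip200 KO and 0.42 in Atg7 KO cells, where 1 library, at 23.4 RPKM, lay within control. Its relatives did not pass in any comparison: Mrps18a had log2 fold changes of 0.29 with loss of Atg5, -0.07 with loss of Atg7 and 0.10 with loss of Fip200, and Mrps18c of -0.09, -0.32 and -0.30.

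Mrps9, a conserved small subunit protein, held 21.2, 21.7 and 20.5 RPKM in control, and the Atg5 KO libraries held 30.4, 29.2 and 29.8. These did not overlap, and the rise of 0.49 ± 0.09 (SE) passed (limma adjusted p = 0.013), though not in the fit over all 12 libraries. Mrps27, a small subunit protein found only in mitochondria, rose by 0.59 ± 0.12 in Atg5 KO cells (limma adjusted p = 0.015). Mrps11, a conserved one, rose by 0.52 ± 0.12 (limma adjusted p = 0.020). In Atg7 KO cells the values were 0.49, 0.26 and 0.37 for Mrps9, Mrps27 and Mrps11, and none passed.

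Of the 4 genes that fell in Atg5 KO cells, the one with the largest decrease was Mrps36, whose product is a part of the oxoglutarate dehydrogenase complex. It had 19.7, 29 and 26.8 RPKM in control, 11.4, 12.6 and 13.0 in Atg5 KO, 11.3, 12.7 and 15.2 in Atg7 KO and 23.5, 14.5 and 11.3 in Fip200 KO libraries. Only Fip200 KO replicate 1 reached into the control range. The log2 fold change was -0.98 ± 0.16 (SE) in Atg5 KO (limma adjusted p = 0.0089), -0.91 ± 0.20 in Atg7 KO (limma adjusted p = 0.031) and -0.64 ± 0.30 in Fip200 KO cells (limma adjusted p = 0.348). The gene table used here lists 3 pseudogenes named after Mrps36 and 1 each after Mrpl23 and Mrpl48, so reads of these genes could be shared with near-identical copies.

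Mrps16, a conserved small subunit protein, had 59.2, 72.3 and 51.8 RPKM in control, 39.7, 38.5 and 43.3 in Atg5 KO libraries, and 37.5, 34.6 and 48.1 in Atg7 KO libraries, all below control. In Fip200 KO libraries it had 103, 40.3 and 43.8 RPKM, so that replicate 1 was above and the other libraries below all control libraries. It fell by 0.57 in Atg5 KO cells (limma adjusted p = 0.026) and by 0.60 in Atg7 KO cells (limma adjusted p = 0.077), and neither passed in the fit over all 12 libraries. The Fip200 KO log2 fold change was -0.09, and it was -0.52 without replicate 1.

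Mrpl14, a conserved protein of the large subunit and second in level among its genes, had 41.5, 52.3 and 43.7 RPKM in control and 48.9, 28.4 and 25.7 in Fip200 KO libraries. Atg5 KO libraries had 30.3, 37.3 and 32.0 and Atg7 KO libraries 29.3, 30.9 and 32.8, all below control. Mrpl14 fell by 0.46 in Atg5 KO cells (limma adjusted p = 0.044) and by 0.55 in Atg7 KO cells (limma adjusted p = 0.052), and neither passed in the fit over all 12 libraries. No other Mrpl gene fell in these comparisons. Mrps30, whose product sits in the large subunit, had 25.1, 40.6 and 34.2 RPKM in control and 22.3, 23.3 and 19.8 in Atg5 KO libraries. It fell by 0.58 there (limma adjusted p = 0.055), and its log2 fold changes of -0.35 in Fip200 KO and -0.47 in Atg7 KO cells did not pass.

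The promoters of the genes called, and of those that fell with loss of Atg5 and of Atg7, are shown because genes that moved in opposite directions can be compared in them. Each line gives 100 bases before and 50 bases after the RefSeq gene start (build GRCm38.p6), read 5′ to 3′ on the strand of the gene. Capitals mark matches, on either strand, to 3 motifs of factors linked to nuclear genes for mitochondrial proteins: GCGCANGCG for NRF1, CCGGAAG for the ETS family with GABPA, and AANATGGC for YY1.
Mrpl33, chr5:31613851-31614000, plus strand: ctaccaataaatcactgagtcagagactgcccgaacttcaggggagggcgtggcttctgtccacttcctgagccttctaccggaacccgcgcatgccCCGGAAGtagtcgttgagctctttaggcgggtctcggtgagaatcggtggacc
Mrpl16, chr19:11770315-11770464, plus strand: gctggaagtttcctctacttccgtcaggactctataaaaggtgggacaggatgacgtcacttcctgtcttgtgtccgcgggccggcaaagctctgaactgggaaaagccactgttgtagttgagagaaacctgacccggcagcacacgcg
Mrpl49, chr19:6057706-6057855, minus strand: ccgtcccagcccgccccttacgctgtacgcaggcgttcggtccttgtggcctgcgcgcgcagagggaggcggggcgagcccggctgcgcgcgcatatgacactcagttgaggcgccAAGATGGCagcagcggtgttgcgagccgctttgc
Mrps36, chr13:100744610-100744759, minus strand: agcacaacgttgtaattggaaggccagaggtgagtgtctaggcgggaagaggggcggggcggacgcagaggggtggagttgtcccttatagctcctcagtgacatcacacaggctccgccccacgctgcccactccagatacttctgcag
Mrps16, chr14:20393441-20393590, minus strand: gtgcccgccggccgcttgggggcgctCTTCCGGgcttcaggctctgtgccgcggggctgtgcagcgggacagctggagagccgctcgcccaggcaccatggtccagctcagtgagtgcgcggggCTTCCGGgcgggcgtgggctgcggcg
Mrpl14, chr17:45686249-45686398, plus strand: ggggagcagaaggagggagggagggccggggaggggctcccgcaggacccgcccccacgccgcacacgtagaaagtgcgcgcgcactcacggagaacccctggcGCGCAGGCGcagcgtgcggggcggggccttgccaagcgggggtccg
The Mrpl33 window holds an ETS match across the gene start, the Mrps16 window, 1 of 2 listed for this gene, 2 of them in reverse orientation, the Mrpl14 window an NRF1 match and the Mrpl49 window a YY1 match, while these letters are not in the Mrpl16 and Mrps36 windows. Promoter windows of 250 bases before to 50 after the start were found by gene ID for 69 of the 78 genes, 75 windows in all. At least 1 motif was in 64% of them, beside 18.6% of all 32851 RefSeq promoter windows, 33.5% of those of the genes tested, and 66.7% of those of 70 cytosolic ribosomal protein genes, of which 53 had a window. NRF1 matches were in 21.3% of the member windows (6.25% of all promoters), ETS matches in 34.7% (8.86%) and YY1 matches in 28% (6.05%), and no match of 1 motif overlapped with a match of another. The share with any motif was 66.7% of large and 59.3% of small subunit windows. By gene, 21 of 30 that rose in Atg5 KO cells and 27 of 39 others had a window with a motif. A match describes the letters of the window and does not show that a factor binds there.

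The subunits were then compared by the sum of their RPKM in each library. Large subunit genes summed to 1142 to 1218 RPKM in control, 1429 to 1559 in Atg5 KO, 1240 to 1611 in Atg7 KO and 1214 to 1641 in Fip200 KO libraries. The sum was above control in all Atg5 KO and Atg7 KO libraries, and in all but the lowest Fip200 KO library, which fell just under the highest control. Small subunit genes summed to 791 to 894 in control, 884 to 1009 in Atg5 KO, 778 to 1005 in Atg7 KO and 813 to 1018 in Fip200 KO libraries, and each KO overlapped with control.

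The ratio of the large to the small sum was 1.41 ± 0.047 (SD, n = 3) in control, 1.59 ± 0.038 in Atg5 KO, 1.56 ± 0.069 in Atg7 KO and 1.61 ± 0.107 in Fip200 KO cells. It lay between 1.36 and 1.46 in the control libraries and between 1.48 and 1.71 in the 9 KO libraries, so that no KO library overlapped with control. A sum is led by the genes with the highest RPKM, and the median gene of each subunit did not follow it. The median RPKM of the large subunit genes of a library averaged 23.7 in control, 26.6 in Atg5 KO, 24.9 in Atg7 KO and 23.6 in Fip200 KO cells, and that of the small subunit genes 21.4, 24.5, 25.2 and 24.3. By medians the large subunit was thus above the small one in control and Atg5 KO cells and below it in Atg7 KO and Fip200 KO cells, and the ranges of the library medians of both subunits overlapped in each group. A ratio within a library does not change with the scaling of that library. The difference from control was 0.17 on the log2 scale for Atg5 KO, 0.15 for Atg7 KO and 0.19 for Fip200 KO cells. With Mrps30 and Mrps18a counted in the large subunit and Mrps36 left out, as the places of their proteins ask, it was 0.108, 0.063 and 0.131 in this order.

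The lack of overlap held with the highest gene of each subunit left out, at 1.36 to 1.5 in control against a lowest KO library of 1.54. It depended on 2 choices. With Mrpl33 left out, an alternative added after seeing the data, control libraries were at 1.33 to 1.39 and the lowest Atg7 KO library at 1.38. With the proteins so placed, control libraries were at 1.65 to 1.73, and the lowest Fip200 KO library at 1.71 and the lowest Atg7 KO library at 1.69 fell among them. Atg5 KO libraries, from 1.74, stayed above control. All these sums hold only genes with Mrpl or Mrps symbols. They leave out Dap3, Ptcd3, Chchd1, Aurkaip1 and Gadd45gip1, which also encode proteins of the mitochondrial ribosome. The ratios thus do not describe whole subunits, and whether any KO stays apart from control with these genes added was not tested.

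**Figure D4:**
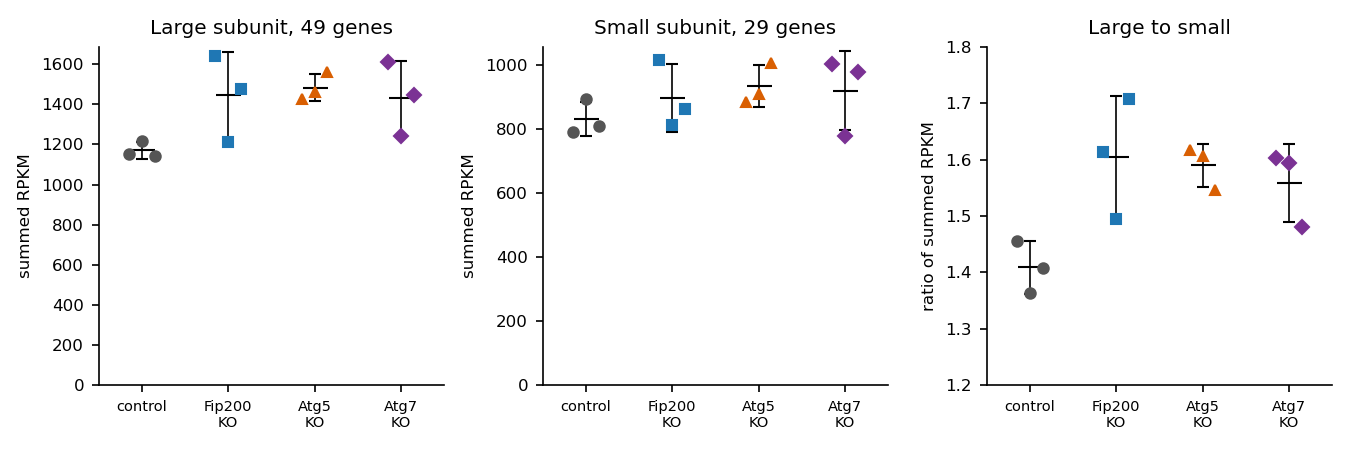
Summed RPKM of the 49 large subunit genes (left) and 29 small subunit genes (middle) and their ratio (right, axis from 1.2 to 1.8) in each library, by group. Points are libraries and lines the mean and SD; the ratio is above 1.46, the highest control library, in all 9 KO libraries.

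Genes with bacterial counterparts and genes found only in mitochondria were then counted apart. In Atg5 KO cells 14 of 29 conserved and 10 of 20 mitochondria-specific large subunit genes rose, the latter counted with Mrps30, where 22.9% of all genes rose. In the small subunit 5 of 15 conserved and 3 of 9 mitochondria-specific genes rose, and Mrpl55, Mrps18a, Mrps18b, Mrps28 and Mrps36 were in none of these lists. In Atg7 KO cells 8 of 29 conserved and 3 of 20 mitochondria-specific large subunit genes rose, and 0 of 15 and 0 of 9 in the small subunit, where 11.3% of all genes rose, so that the share of the mitochondria-specific large subunit genes was near the background. Medians in Atg5 KO cells were 0.28, 0.30, 0.26 and 0.22 for the 4 lists in this order.

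Libraries of 1 group differed in the members as a set. Fip200 KO replicate 1 was the highest of its group for 44 of the 78 genes and replicate 2 the lowest for 44. Atg7 KO replicate 2 was the lowest of its group for 49 genes, with a median of -0.28 on the log2 scale from the mean of the other two libraries, where all tested genes had a median of -0.08. Atg5 KO replicate 3 was highest for 46 genes, with a median of 0.13, and control replicate 2 for 45, with a median of 0.10. Control replicate 2 is the library with the lowest endothelial and the highest Dcn and Pdgfra values, and without it the median of the 78 genes was 0.31 in Atg5 KO, 0.26 in Atg7 KO and 0.24 in Fip200 KO cells. Whether Cd68, which was high in Fip200 KO replicate 1, or the markers of control replicate 2 have a part in the values was not tested.

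Members were spread over 17 chromosomes, and the level of whole chromosomes also differed between KO and control cells. On chromosome 13, which carries Mrps36, Mrps30, Mrps27, Mrpl32 and Mrpl36, the median log2 fold change of all tested genes was -0.23 in Atg5 KO, -0.28 in Atg7 KO and -0.25 in Fip200 KO cells. On chromosome 4, with Mrpl20, Mrpl37, Mrpl50 and Mrps15, it was 0.35, 0.18 and 0.26, and on chromosome 8, with Mrpl34 and Mrps31, -0.37, -0.38 and -0.37. The part of these shifts in the values of single members was not tested beyond the subtraction that follows.

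With the median of its chromosome subtracted from each gene, the median of the 78 genes was 0.20 in Atg5 KO, 0.22 in Atg7 KO and 0.16 in Fip200 KO cells. In Atg5 KO cells Mrps36 was then at -0.75, Mrps30 at -0.35 and Mrpl14, on chromosome 17, at -0.77. Mrpl33, on chromosome 5, was at 1.23, and Mrpl49 and Mrpl16, both on chromosome 19, at 0.93 and 0.86. All 5 members on chromosome 19, Mrpl11, Mrpl16, Mrpl21, Mrpl43 and Mrpl49, had log2 fold changes above 0 there, and all 3 on chromosome 14, Mrpl52, Mrpl57 and Mrps16, had values below 0.

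**Figure D5:**
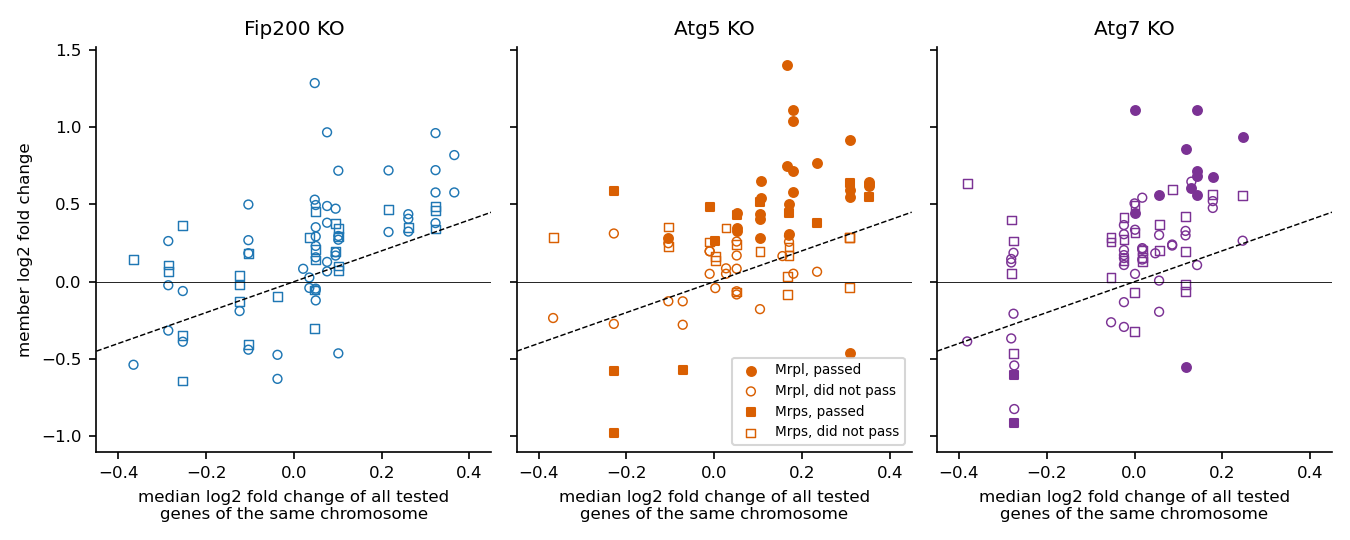
Log2 fold change of each member (y axis) against the median log2 fold change of all tested genes of the same chromosome (x axis), with 1 panel for each KO. Circles are Mrpl and squares Mrps genes, filled symbols passed (adjusted p up to 0.1), and the dashed line marks equal values; most members lie above it, 55 of 78 for Fip200 KO, 58 for Atg5 KO and 60 for Atg7 KO cells.

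Other genes of mitochondrial translation were described from lists chosen by function. Of 5 further mitochondrial ribosome proteins, 3 rose and 1 fell in Atg5 KO cells, where 22.9% of all genes rose and 18.7% fell. Ptcd3, a pentatricopeptide protein of the small subunit, rose by 0.86 (limma adjusted p = 0.0051), from 24.5 to 25.5 RPKM in control to 42.5 to 51.2. Aurkaip1, another protein of the small subunit, rose by 0.62 and Dap3, a GTP-binding one, by 0.40, whereas Gadd45gip1, a large subunit protein, fell by 0.80 (limma adjusted p = 0.0054). In Atg7 KO cells Gadd45gip1 fell by 0.50 (limma adjusted p = 0.088) and none of the 5 rose, where 11.3% of all genes rose and 13.7% fell.

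Among 37 assembly and translation factors, 14 rose and 2 fell with loss of Atg5, 5 rose and 3 fell with loss of Atg7, and 0 passed in Fip200 KO cells. The 0 in Fip200 KO cells was near the background, where 0.356% of all genes rose and 1.69% fell. As shares of the list, 37.8% rose and 5.41% fell with loss of Atg5, beside 22.9% and 18.7% of all genes, and 13.5% and 8.11% with loss of Atg7, beside 11.3% and 13.7%, so the share that rose with loss of Atg7 was near the background. Rpusd4, a pseudouridine synthase that acts on the mitochondrial large rRNA, went from 6.31 to 7.57 RPKM in control to 14.0 to 15 in Atg5 KO libraries, a rise of 1.03 (limma adjusted p = 0.0042). It rose by 0.99 in Atg7 KO cells (limma adjusted p = 0.031). Noa1, a GTPase of small subunit assembly, rose by 0.82 with loss of Atg5 and 1.13 with loss of Atg7, and Lrpprc, which stabilizes mitochondrial messages, by 1.12 and 0.95. Fastkd2, an RNA-binding protein of large subunit assembly, rose by 0.78 in Atg5 KO cells.

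Mpv17l2, an inner membrane protein of ribosome assembly encoded on chromosome 8, fell by 1.34 in Atg5 KO cells (limma adjusted p = 0.0048) and by 1.58 in Atg7 KO cells (limma adjusted p = 0.018). Its control libraries held 33.1, 42.7 and 43.5 RPKM and the 9 KO libraries between 9.15 and 24.1. Gfm2, a factor of ribosome recycling on chromosome 13, fell by 0.83 and 0.77, and Ngrn, which acts on the large rRNA, by 0.74 in Atg7 KO cells. Of 12 regulators of mitochondrial biogenesis, 11 were tested, and 5 (45.5%, beside 22.9% of all genes) rose in Atg5 KO cells and 1 (9.09%, beside 11.3%) in Atg7 KO cells. Tfb2m, a transcription factor of mitochondrial DNA, rose by 0.58 and 0.53. Tfam, which packs mitochondrial DNA and starts its transcription, rose by 0.50, Pprc1, a coactivator, by 0.48 and Yy1 by 0.38 in Atg5 KO cells.

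The 70 cytosolic ribosomal protein genes gave a reference of like function: 39 rose and 2 fell in Atg5 KO, 31 rose and 0 fell in Atg7 KO cells, and 0 passed in Fip200 KO cells. The shares that rose, 55.7% and 44.3%, stand beside 22.9% and 11.3% of all genes, while 18.7% and 13.7% of all genes fell. In Fip200 KO cells 0.356% of all genes rose and 1.69% fell, so the 0 there was near the background. Medians of the cytosolic genes were 0.39 in Atg5 KO, 0.44 in Atg7 KO and 0.23 in Fip200 KO cells, beside 0.27, 0.23 and 0.20 for the mitochondrial ribosomal protein genes.

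The KO cells were also compared with each other in 1 limma fit over the 12 libraries. Of 12233 genes tested, 0% passed between Atg5 KO and Fip200 KO, between Atg7 KO and Fip200 KO, and between Atg7 KO and Atg5 KO cells, and 0 of the 78 members did. At an unadjusted p under 0.05, 5, 3 and 0 of the 78 members differed, beside 7.58%, 7.49% and 4.59% of all genes. None of these counts exceeded the background share, and the 5 for Atg5 KO against Fip200 KO cells were near it. The smallest adjusted p of a member by limma was 0.551, 0.549 and 0.9999. The difference of Mrpl49 between Atg5 KO and Fip200 KO cells, 0.62 ± 0.21 (SE), is an example that did not pass. Without Fip200 KO replicate 3, Mrpl49, Mrpl21, Mrpl36 and Mrps12 passed as higher in Atg5 KO than in Fip200 KO cells, by 0.70 to 0.94, and Mrpl21 and Mrps12 as higher in Atg7 KO than in Fip200 KO cells. In these fits 3.17% and 3.44% of all genes passed as higher. These tests do not show that the KO cells were alike.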

How the data were processed

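Sequencing reads of total RNA libraries (NEBNext Ultra II Directional kit) were aligned with TopHat2 and counted on known transcripts with Bioconductor packages by the authors, whose own tests used edgeR; the genome build, annotation, versions and use of strand are not given in the sources used here. The authors deposited RPKM values per library in 3 tables, 1 per KO with the same 3 control libraries, scaled to the reads of each library and not between libraries. The unit is not named there and was read from the values. Ratios between libraries gave whole reads for 14851 of 14851 genes, 20 of them without reads, and these served for depth only. The tables also hold group means, fold changes and p-values of the authors' comparisons, which were not used.

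RPKM plus 0.5 was log2-transformed and tested with limma (version 3.58.1, R 4.3.3; lmFit and eBayes with a variance trend), 3 KO against 3 control libraries, for genes with at least 0.5 RPKM in at least 3 of the 6 libraries. P-values were adjusted by Benjamini-Hochberg over all genes tested. The pseudocount understates changes of low genes. Differences between KO cells came from 1 fit over all 12 libraries. The script was tested on simulated data. The genes described were chosen by rule: per KO and subunit up to 4 that rose and 4 that fell with the smallest adjusted p, those called, the 3 highest and 3 lowest in control, the 3 with most spread between control libraries, and the Mrps18 genes, Mrps30 and Mrps36; of other lists up to 4 per direction. Genes listed by name in a pattern or on a chromosome were named after their values were seen. The members and lists were chosen with earlier results of these data known. Alternatives were the pseudocount, the filter, median-of-ratios scaling, a fit over all libraries, a term for the library-name prefix, a replicate block, no variance trend, subtraction of chromosome medians, other members in the subunit sums, and leaving out each library.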

Additional observations from a re-analysis of the deposited data

How the results depend on the processing

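Over the other pseudocounts, filters, scaling and variance setting, counts of members stayed within 1.5 times the values given, except that the small subunit genes that rose in Atg7 KO cells went from 0 to 1 with a filter at 2 RPKM and to 2 with median-of-ratios scaling. Of all genes, 0.142% rose and 0.919% fell in Fip200 KO cells with no filter on low values, where more genes were tested. A fit over all 12 libraries gave 6 genes that rose in Fip200 KO cells, all 6 of the large subunit (Mrpl3, Mrpl16, Mrpl18, Mrpl19, Mrpl33 and Mrpl48). For Atg5 KO cells it gave 15 that rose (11 large, 4 small subunit) and 2 that fell, and for Atg7 KO cells 1 small subunit gene that rose and 1 that fell. With a prefix term added to that fit, which then compares 2 Atg5 KO with 2 control libraries and reaches Atg7 KO cells through 1 library, 5 genes rose in Atg5 KO cells (5 large, 0 small subunit: Mrpl11, Mrpl16, Mrpl18, Mrpl33 and Mrpl49) and 1, Mrps36, fell, while 0 rose and 0 fell in Atg7 KO cells. In that fit the log2 fold change of Mrps18a was 0.199 in Atg7 KO and -0.0114 in Fip200 KO cells, and that of Mrps30 was 0.0267 in Fip200 KO cells, each with a changed sign. The cause was not tested beyond the smaller number of libraries behind each difference.

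With the replicate number as a block (replicate block), 6 genes, all 6 of the large subunit, rose and 1 fell in Atg7 KO cells (6.69% and 9.4% of all genes), 25 rose and 4 fell in Atg5 KO cells (18.2% and 15.4%), and 0 passed in Fip200 KO cells (0.11% and 0.678%). Libraries with the same number in KO and control cells did not deviate together (correlations of deviations from the group mean between -0.22 and 0.08), so the numbers do not pair the libraries.

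Leaving out 1 library at a time gave 0 to 1 genes that rose in Fip200 KO cells (1 of the large subunit, without Fip200 KO replicate 3, where 1.93% of all genes rose). For Atg5 KO cells the counts were 22 to 33 that rose, 15 to 24 of them in the large subunit, and 2 to 4 that fell, the lowest without Atg5 KO replicate 1. For Atg7 KO cells they were 2 to 30 that rose, 2 to 22 in the large and 0 to 8 in the small subunit, and 0 to 4 that fell. Between KO cells, 0 to 4 members passed for Atg5 against Fip200 KO and 0 to 2 for Atg7 against Fip200 KO. Median log2 fold changes kept their sign. The Fip200 KO value of Mrps16 ranged from -0.52 to 0.15, that of Mrps18a from -0.16 to 0.24, and the Atg7 KO value of Mrps18a from -0.26 to 0.18. The log2 difference of the large to small ratio was 0.108 for Atg5 KO but 0.063 for Atg7 KO cells with Mrps30 and Mrps18a moved and Mrps36 left out, and 0.12 in Atg5 KO cells without Mrpl33.

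By the whole reads recovered from the RPKM steps, the lowest value of any of the 78 genes in a library was 69 reads, for Mrpl16, and the number of 3 libraries per group limits the precision of each comparison.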
